A study of Caenorhabditis elegans with 15 samples.

Results

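The 10 genes described here encode the subunits of the condensins of C. elegans, smc-4, mix-1, kle-2, hcp-6, capg-1, capg-2, dpy-26, dpy-27 and dpy-28, together with sdc-2, which brings the dosage compensation condensin to the X chromosome. They were taken by name, and all 10 were found among the 42048 genes of the deposited expression tables. RNA was sequenced from whole worms on adult day 1 in 15 libraries, 3 in each of 5 groups. The first group was TU3401, with no genotype in the labels, fed the control RNAi named luc in the titles. The other 4 groups were SHU47, labelled glp-1. They were fed luc as control or RNAi against hlh-30, against atg-2 or against atg-18. Worms of all groups grew at 20 °C, and RNAi was given by feeding HT115 (DE3) bacteria with the L4440 vector. TU3401 is known as a sid-1 mutant in which the double-stranded RNA channel SID-1 is restored in neurons from the unc-119 promoter, so that feeding RNAi acts mainly there. The gTU titles of the SHU47 samples point to the same background, but the sources used here do not give the glp-1 allele. GLP-1 is the Notch receptor that keeps germline stem cells dividing, and glp-1 mutants can lack most of the germline.

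Condensins are ring-shaped complexes that loop and compact chromosomes. Each holds a pair of SMC ATPases, a kleisin that closes the ring, and a pair of HEAT-repeat subunits of the CAP-D and CAP-G type. Worms have 3 of them: condensin I and condensin II, which shape chromosomes in mitosis and meiosis, and a dosage compensation condensin, which lowers transcription of both X chromosomes in XX animals. MIX-1, the SMC2-type ATPase, is in all 3 complexes. SMC-4 is the partner of MIX-1 in condensins I and II. KLE-2, HCP-6 and CAPG-2 are the kleisin, the CAP-D subunit and the CAP-G subunit of condensin II. DPY-26, DPY-28 and CAPG-1 are the corresponding subunits of both condensin I and the dosage compensation condensin. DPY-27 replaces SMC-4 in the dosage compensation condensin, and SDC-2 is the X-recruiting factor of that complex in hermaphrodites. The genes are therefore described in 3 classes: mitotic only (smc-4, kle-2, hcp-6, capg-2), shared (mix-1, dpy-26, dpy-28, capg-1) and dosage compensation only (dpy-27, sdc-2). In the reference annotation smc-4, kle-2, dpy-27 and dpy-28 lie on chromosome III, hcp-6 and capg-1 on I, mix-1 on II, dpy-26 on IV, capg-2 on V and sdc-2 on X.

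Levels are RPKM, reads scaled by gene length and by library depth, as the authors deposited them, and are given as mean ± SD with n = 3. Differences are on the log2(RPKM + 1) scale, which understates the change of low genes, and were tested with limma over every gene whose mean RPKM reached 1, with p adjusted by the Benjamini-Hochberg method. Since nothing in the labels says whether replicates are separate cultures, the p-values cover the spread between libraries alone, which may be technical. Depth was 17496624 to 25599148 reads per library. The gene glp-1 was at 69.6 ± 3.53 RPKM in TU3401 and 2.96 ± 0.426 in glp-1 luc. None of the 3 RNAi targets was lower in the libraries labelled with its RNAi than in glp-1 luc. For hlh-30 the levels were 249 ± 108 and 50.0 ± 5.08 RPKM (adjusted p = 0.107). For atg-2 they were 40.2 ± 2.66 and 30.1 ± 4.19 (adjusted p = 0.434), and for atg-18 82.0 ± 33.3 and 72.5 ± 5.23 (adjusted p = 0.965, all by limma). Library 1 stood apart in 3 groups, namely glp-1 luc and the hlh-30 and atg-2 RNAi groups: a list of 17 oocyte and eggshell markers summed to 90.1, 158 and 242 RPKM there, against 9.89, 9.70 and 9.93 as the mean of libraries 2 and 3 of the same groups.

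The comparison of glp-1 luc with TU3401 luc asks how condensin transcripts differ between worms with and without the glp-1 genotype. All 10 genes were lower in glp-1 luc, by amounts that differed between the 3 classes. The mitotic-only genes were at 0.897% to 3.78% of their TU3401 mean, the shared genes at 5.13% to 11.6%, and the dosage-compensation-only genes at 27.7% and 37.3%. All 10 passed the test, and in all 10 the 3 glp-1 luc libraries lay below the 3 TU3401 libraries. Among all 13569 genes tested, 48.3% were called lower and 48.6% had every glp-1 luc library below every TU3401 library, so a fall by itself was common. hcp-6 and capg-2 passed the filter on low values only through TU3401, so they had to differ.

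smc-4, the SMC ATPase of the mitotic condensins, read 74.4, 67.7 and 67.1 RPKM in the 3 TU3401 libraries and 1.90, 1.15 and 1.49 in the 3 glp-1 luc libraries. The groups did not overlap, and the fall was 46.1-fold. The log2 difference was -4.82 (SE 0.121, limma adjusted p = 4.58e-08). kle-2, the condensin II kleisin, had the highest level of the 10 genes in TU3401, with 82.3, 78.3 and 80.6 RPKM. In glp-1 luc it read 3.11, 2.98 and 3.01 RPKM, all far below the TU3401 libraries. Its fall was 26.5-fold, with a log2 difference of -4.33 (SE 0.0640, limma adjusted p = 3.23e-08), the smallest of the mitotic-only genes.

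hcp-6, the CAP-D subunit of condensin II, read 41.8, 41.2 and 39.8 RPKM in TU3401 and 0.675, 0.182 and 0.244 in glp-1 luc. Library 1 of glp-1 luc was the highest of its group, and all 3 lay far below TU3401. The ratio of group means was 111.5 and the log2 difference -4.96 (SE 0.145, limma adjusted p = 6.63e-08). capg-2, the CAP-G subunit of condensin II, read 64.6, 58.9 and 58.8 RPKM in TU3401 and 1.18, 0.404 and 0.424 in glp-1 luc. Library 1 was again the highest of its group, and the groups did not overlap. The ratio of means was 91.0 and the log2 difference -5.24 (SE 0.177, limma adjusted p = 1.13e-07). The read counts behind these low levels were small: across the 12 glp-1 libraries hcp-6 had 18 to 156 reads and capg-2 had at least 20, against 4661 to 5373 for hcp-6 in TU3401.

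Of the shared genes, mix-1, the SMC2-type ATPase of all 3 condensins, read 56.6, 53.0 and 54.6 RPKM in TU3401 and 4.65, 3.57 and 3.47 in glp-1 luc. The groups were far apart, with a 14.05-fold fall and a log2 difference of -3.52 (SE 0.106, limma adjusted p = 7.34e-08). dpy-28, the CAP-D subunit that is also known to limit meiotic crossovers, read 38.04, 33.55 and 33.86 RPKM in TU3401. In glp-1 luc it read 2.52, 1.43 and 1.46 RPKM, with library 1 the highest. It fell 19.5-fold, the most of the shared genes, with a log2 difference of -3.71 (SE 0.158, limma adjusted p = 3.27e-07).

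dpy-26, the kleisin of condensin I and of the dosage compensation condensin, read 51.7, 49.2 and 48.3 RPKM in TU3401 and 6.04, 4.73 and 5.25 in glp-1 luc. Every glp-1 luc library was below every TU3401 library, and the fall was 9.32-fold (log2 difference -3.01, SE 0.0929, limma adjusted p = 8.06e-08). capg-1, the CAP-G subunit of the same complexes, read 49.4, 46.4 and 47.5 RPKM in TU3401 and 6.09, 5.21 and 5.29 in glp-1 luc. Its libraries did not overlap either, and it fell 8.64-fold (log2 difference -2.90, SE 0.0796, limma adjusted p = 5.47e-08). In the annotation hcp-6 shares 27 coding bases with spd-5 on the other strand and capg-1 shares 21 with a piRNA gene. The sources used here do not say whether counting used strand, so reads over those bases cannot be told apart.

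dpy-27, the SMC ATPase found only in the dosage compensation condensin, read 25.7, 23.8 and 23.7 RPKM in TU3401 and 7.35, 6.71 and 6.22 in glp-1 luc. The groups did not overlap, but the fall was 3.61-fold (log2 difference -1.71, SE 0.0851, limma adjusted p = 7.3e-07). sdc-2 was the lowest of the 10 genes in TU3401, with 4.65, 4.46 and 4.55 RPKM. It read 1.90, 1.59 and 1.60 RPKM in glp-1 luc, below every TU3401 library, a 2.68-fold fall and the smallest of the 10 (log2 difference -1.04, SE 0.108, limma adjusted p = 4.88e-05). Its low RPKM still rested on 850 to 1036 reads per TU3401 library and 241 to 388 per glp-1 library, since its coding length of 8889 bases is the longest of the 10. The annotated antisense gene anr-16 overlaps 1181 of those bases, and reads of both strands cannot be told apart.

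**Figure D1:**
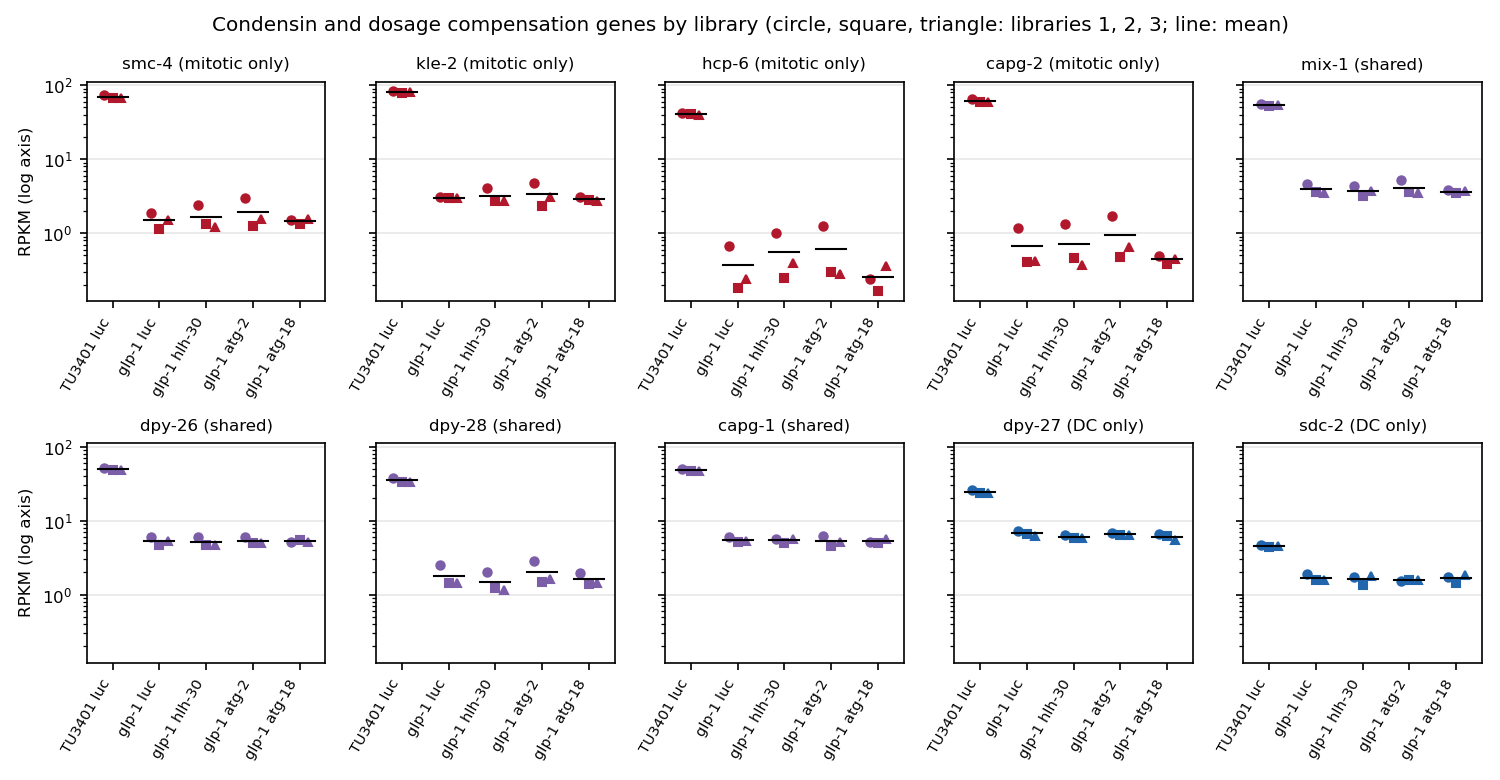
RPKM of the 10 condensin and dosage compensation genes in each of the 15 libraries, on a log axis, by group and class. The mitotic-only genes drop from between 39.8 and 82.3 RPKM in TU3401 to at most 3.11 in glp-1 luc, while dpy-27 drops only to between 6.22 and 7.35.

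The median log2 difference was -4.89 for the mitotic-only genes (-5.24 to -4.33), -3.26 for the shared genes (-3.71 to -2.90) and -1.38 for the pair of dosage-compensation-only genes (-1.71 to -1.04), beside -0.186 for all genes tested. Single glp-1 luc libraries kept the classes apart. As a percentage of the TU3401 mean, the glp-1 luc libraries ran from 0.444% to 3.87% for the mitotic-only genes, 4.08% to 12.8% for the shared genes and 25.5% to 41.7% for dpy-27 and sdc-2. In hlh-30 RNAi the mitotic-only genes reached 5.09% and the shared genes began at 3.25%, so these classes overlapped. They also did in atg-2 RNAi (5.98% and 4.28%), but not in atg-18 RNAi (3.86% and 4%). RPKM are relative to the library total. With scaling on neuronal and muscle genes instead, the median over all genes moved from -0.186 to -1.51. That scaling lowered glp-1 luc values against TU3401, so it could not turn a fall into a rise. The 10 genes then ran from -6.22 for capg-2 to -2.11 for sdc-2, with dpy-27 at -3.07. The share of calls that were higher moved from 46.1% to 15.9%. Library 1 of glp-1 luc was the highest of its group in all 10 genes, so leaving it out could only widen the falls. Without it all 10 genes were still called lower by limma, where hcp-6 and capg-2 had to differ. The ratio of means rose from 111.5 to 192.3 for hcp-6 and from 91.0 to 146.7 for capg-2. The log2 differences were then -4.93 for smc-4, -5.11 for hcp-6, -5.45 for capg-2, -3.88 for dpy-28, -1.77 for dpy-27 and -1.10 for sdc-2. The authors' deposited table gave the same order of classes, with log2 fold changes of -6.61 for hcp-6, -6.32 for capg-2, -5.33 for smc-4, -4.54 for kle-2, -1.66 for dpy-27 and -1.23 for sdc-2. There all 10 had a false discovery rate under 0.05, as did 13737 of 42048 genes, 7036 of them lower.

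**Figure D2:**
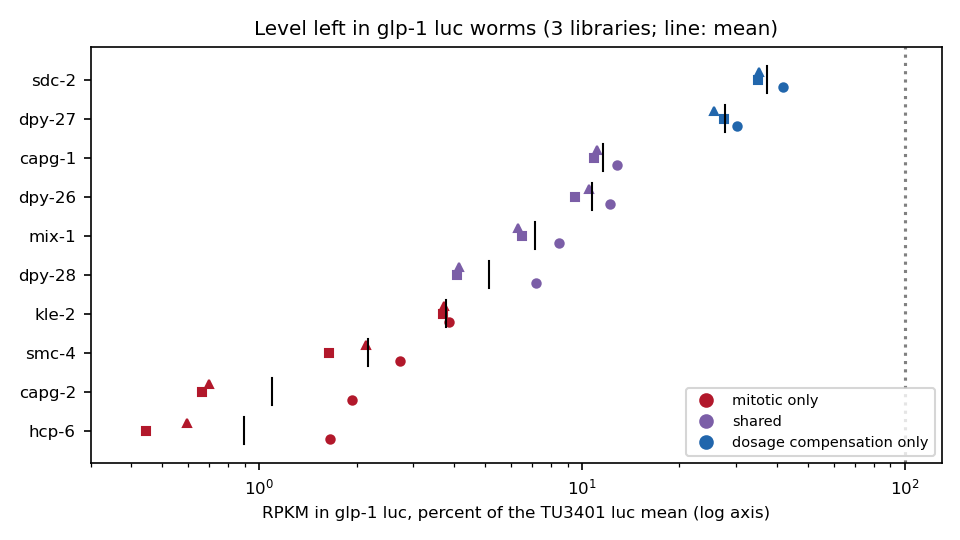
Level of each gene in each glp-1 luc library as a percentage of its TU3401 mean, on a log axis. In the glp-1 luc libraries the 3 classes do not overlap: 0.444% to 3.87%, 4.08% to 12.8% and 25.5% to 41.7%.

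Markers of several tissues moved with these genes. The summed level of 25 germline markers was 11170 to 11780 RPKM in the TU3401 libraries and 179 to 281 in glp-1 luc, where pgl-1, puf-8, fbf-1 or him-3 was listed at 0 in some library. All were called lower, but 11 of the 25 passed the filter only through TU3401 and had to differ. The 17 oocyte and eggshell markers, 4 of which passed only through TU3401, were all called lower, from 9402 to 10020 RPKM in TU3401 to 9.60 to 90.1 in glp-1 luc, with egg-2 or spn-4 at 0 in some library. Of the 18 early embryo markers, elt-7, which is also an intestine gene, was called higher, at 7.97 ± 0.602 and 19.5 ± 1.5 RPKM. The other 17 summed to 85.8 to 94.5 RPKM in TU3401 and 0.923 to 2.40 in glp-1 luc, where end-3, tbx-38, hlh-26 and hlh-27 were at 0 in all 3 libraries.

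Of the somatic lists, 27 of 29 muscle markers were called higher (summed level 4753 to 5492 RPKM in TU3401 and 14710 to 17830 in glp-1 luc), as were 14 of 15 intestine markers (2703 to 3048 and 9436 to 10080) and 15 of 24 pan-neuronal markers (915 to 992 and 1137 to 1304). Called lower were 2 muscle, 1 intestine and 5 pan-neuronal markers. Over all genes tested 41.4% were called higher. Under scaling on neuronal and muscle genes 14 muscle, 5 intestine and 2 pan-neuronal markers were called higher, and 10, 5 and 11 lower. That scaling makes the joint sum of these muscle and pan-neuronal lists equal in every library, so the balance of their calls under it is built in. The muscle markers make up most of that sum. Of 10 hypodermis and seam markers tested, 8 were called lower and 2 higher, 4 of them passing only through TU3401. The part of these tissues in the differences between the condensin classes was not tested. In whole worms, fewer cells of a type and less RNA per cell cannot be told apart.

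The order of the levels also differed between the groups. In TU3401 it ran from kle-2 through smc-4, capg-2, mix-1, dpy-26, capg-1, hcp-6, dpy-28 and dpy-27 to sdc-2, and only the neighbours dpy-26 and capg-1 overlapped between libraries. In glp-1 luc dpy-27 was first, with 6.76 ± 0.567 RPKM, followed by capg-1 at 5.53 ± 0.489 and dpy-26 at 5.34 ± 0.665, which overlapped each other. mix-1 at 3.90 ± 0.657 and kle-2 at 3.03 ± 0.0678 came next. From dpy-28 at 1.80 ± 0.620 on, each gene overlapped with its neighbour: sdc-2 at 1.70 ± 0.175, smc-4 at 1.51 ± 0.374, capg-2 at 0.668 ± 0.439 and hcp-6 at 0.367 ± 0.269. dpy-27 thus stood 9th of the 10 genes in TU3401 and 1st in glp-1 luc.

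Within a library, each subunit of the dosage compensation condensin can be set against its counterpart in condensin II or the mitotic condensins, where the ratio of their RPKM does not depend on library scaling. For the SMC ATPases, dpy-27 was at 0.350 times the RPKM of smc-4 in TU3401 (0.346 to 0.353 over the 3 libraries) and at 4.63 times in glp-1 luc (3.88 to 5.85). For the kleisins, dpy-26 was at 0.619 times kle-2 in TU3401 and 1.76 times in glp-1 luc (1.58 to 1.94). For the CAP-D pair, dpy-28 was at 0.859 times hcp-6 in TU3401 and 5.86 times in glp-1 luc (3.73 to 7.88). For the CAP-G pair, capg-1 was at 0.787 times capg-2 in TU3401 and 10.2 times in glp-1 luc (5.18 to 12.9). In all 4 pairs the condensin II or mitotic subunit was the higher in every TU3401 library and the lower in every glp-1 luc library.

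On the log2 scale of the RPKM ratios, the change from TU3401 to glp-1 luc was 3.70 for the SMC pair, 1.5 for the kleisins, 2.71 for the CAP-D pair and 3.58 for the CAP-G pair. This scale was added after the values were seen. On log2(RPKM + 1), which compresses the low hcp-6 and capg-2 values, the changes were 3.11, 1.33, 1.25 and 2.34. An exact two-sided permutation test gave p = 0.1 for each on both scales, the smallest that 3 against 3 libraries allow. With all 12 glp-1 libraries set against TU3401, a comparison chosen after the values were seen, the log2(RPKM + 1) changes were 2.98, 1.29, 1.14 and 2.29. Each had an exact permutation p of 0.002198, the smallest possible, and the same after adjustment over the 4 pairs. Every glp-1 library was already known to lie above every TU3401 library, so this p was fixed in advance. It also pools luc with the RNAi groups, and same-numbered libraries of several of these groups deviated together. Without replicate 1 of both groups the log2(RPKM + 1) changes were 3.16, 1.28, 1.27 and 2.46. dpy-26, dpy-28 and capg-1 are also condensin I subunits, so only the dpy-27 and smc-4 pair sets a dosage-compensation-only gene against a mitotic-only gene.

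**Figure D3:**
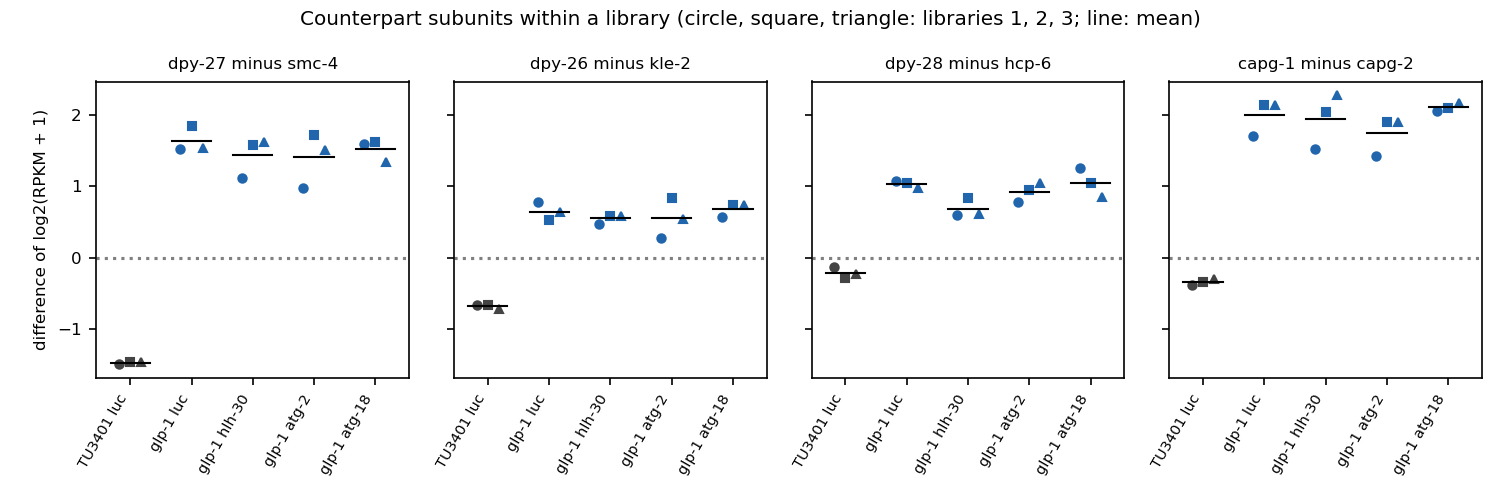
Difference in log2(RPKM + 1) between each dosage compensation condensin subunit and its condensin II or mitotic counterpart within a library, by group, with the group mean. All TU3401 points lie below 0 and the glp-1 luc means lie at 1.64, 0.65, 1.03 and 2.00.

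The genes differed in their range over the 12 glp-1 libraries, and the classes overlapped in this. hcp-6 ran from 0.165 to 1.24 RPKM (median 0.290), a 7.52-fold range, capg-2 from 0.377 to 1.69 (4.47-fold), smc-4 from 1.15 to 3.01 (2.62-fold) and kle-2 from 2.33 to 4.81 (2.06-fold). dpy-28 spanned 2.5-fold, from 1.14 to 2.86 RPKM. mix-1, capg-1 and dpy-26 spanned 1.6-fold, 1.37-fold and 1.32-fold, dpy-27 1.33-fold (5.51 to 7.35, median 6.39) and sdc-2 1.41-fold (1.35 to 1.90, median 1.60). The highest value of each mitotic-only gene, and of the shared genes mix-1, capg-1 and dpy-28, came from library 1 of atg-2 RNAi. That library was at 4.27 times the mean of libraries 2 and 3 for hcp-6, 2.96 times for capg-2, 2.14 times for smc-4 and 1.78 times for kle-2. The shared genes dpy-28, mix-1, capg-1 and dpy-26 were at 1.82, 1.47, 1.28 and 1.22 times there, dpy-27 at 1.08 times and sdc-2 at 0.949 times.

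In the libraries 1 of hlh-30 RNAi and glp-1 luc, hcp-6 was at 3.12 and 3.17 times and capg-2 at 3.17 and 2.84 times. There smc-4 was at 1.92 and 1.44 times, dpy-28 at 1.72 and 1.74 times, and dpy-27 at 1.11 and 1.14 times. kle-2 was at 1.48 times in hlh-30 RNAi but at 1.04 times in glp-1 luc, below dpy-27 and sdc-2 (1.19 times) in that library. In atg-18 RNAi, whose library 1 had a summed oocyte marker level of 11.1 RPKM against 10.7 in the other libraries, hcp-6 was at 0.917 times and capg-2 at 1.18 times. There dpy-28 was at 1.38, dpy-27 at 1.13, kle-2 at 1.12, mix-1 at 1.08, smc-4 and sdc-2 at 1.05, capg-1 at 0.993 and dpy-26 at 0.957 times. In TU3401 library 1 was the highest for every condensin and dosage compensation gene described, at 1.03 to 1.13 times, with the oocyte marker sum at 1.05 times. The oocyte marker sum was 9.11, 16.3 and 24.3 times that of the other libraries in library 1 of glp-1 luc, of hlh-30 RNAi and of atg-2 RNAi. Its part in the condensin values of those libraries was not tested.

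**Figure D4:**
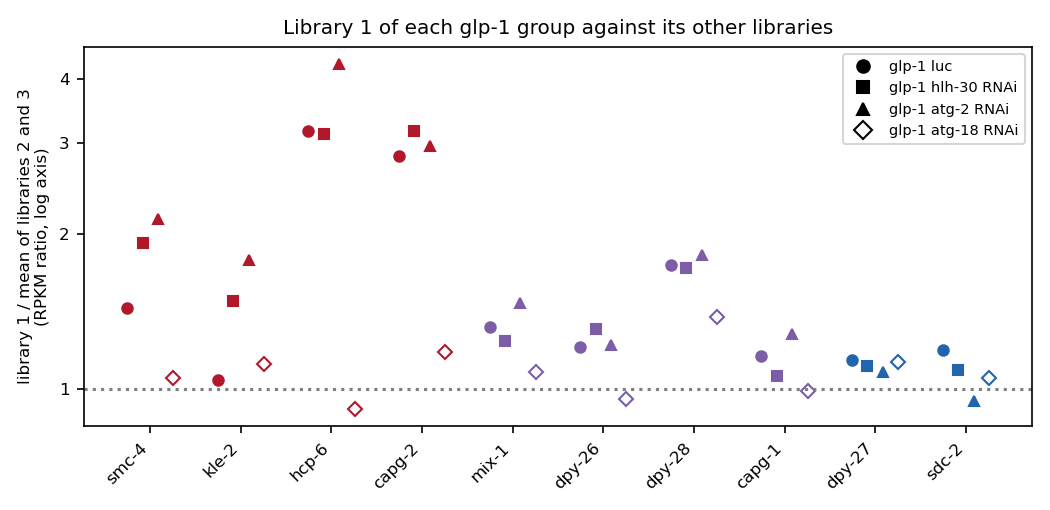
RPKM in library 1 divided by the mean RPKM of libraries 2 and 3 of the same group, for each gene, by glp-1 group. hcp-6 reaches 4.27 in atg-2 RNAi and lies at 0.917 in atg-18 RNAi, while dpy-27 stays between 1.08 and 1.14.

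The RNAi groups ask whether hlh-30, which encodes the worm TFEB-like transcription factor of autophagy and lysosome genes, or the autophagy genes atg-2 and atg-18 change expression in glp-1 worms. None of the condensin or dosage compensation genes passed the test in any of these comparisons. In hlh-30 RNAi against glp-1 luc, 8 of the 10 genes had a mean RPKM of at least 1 and were tested, 0 were called and 0 had an unadjusted p under 0.05, where 0.088% of 12494 genes were called and 9.5% had an unadjusted p under 0.05. In atg-2 RNAi and in atg-18 RNAi again 8 were tested, 0 were called and 0 had an unadjusted p under 0.05, and 0% of 12548 and of 12441 genes were called, with 7.66% and 6.83% at an unadjusted p under 0.05. In the authors' deposited table of each comparison, 0 of the 10 genes had a false discovery rate under 0.05. Of 42048 genes, 93 did for hlh-30 RNAi, 2 for atg-2 RNAi and 44 for atg-18 RNAi. Each RNAi group overlapped with glp-1 luc in all 10 genes, where 14.5%, 13.4% and 11.8% of genes tested had groups that did not overlap in hlh-30, atg-2 and atg-18 RNAi.

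smc-4 read 2.44, 1.31 and 1.23 RPKM in hlh-30 RNAi, 3.01, 1.25 and 1.57 in atg-2 RNAi and 1.52, 1.33 and 1.56 in atg-18 RNAi. All 3 groups overlapped with glp-1 luc, and the log2 differences were 0.07 (95% interval -0.47 to 0.60), 0.19 (-0.41 to 0.79) and -0.02 (-0.40 to 0.37). kle-2 read 4.09, 2.76 and 2.76 RPKM in hlh-30 RNAi, 4.81, 2.33 and 3.08 in atg-2 RNAi and 3.10, 2.84 and 2.71 in atg-18 RNAi, with library 1 the highest of each group. mix-1 read 4.29, 3.22 and 3.70 RPKM in hlh-30 RNAi, 5.16, 3.59 and 3.45 in atg-2 RNAi and 3.84, 3.45 and 3.67 in atg-18 RNAi, and each group overlapped with glp-1 luc.

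hcp-6 and capg-2 were below the filter in these comparisons. hcp-6 read 1.01, 0.245 and 0.401 RPKM in hlh-30 RNAi, 1.24, 0.302 and 0.278 in atg-2 RNAi and 0.241, 0.165 and 0.362 in atg-18 RNAi. capg-2 read 1.33, 0.459 and 0.377 RPKM in hlh-30 RNAi, 1.69, 0.482 and 0.655 in atg-2 RNAi and 0.495, 0.382 and 0.455 in atg-18 RNAi. Library 1 was the highest for both condensin II subunits in hlh-30 and atg-2 RNAi, and the range of glp-1 luc overlapped with all of these groups.

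Among the shared genes, capg-1 ran from 4.54 to 6.22 RPKM and dpy-26 from 4.63 to 6.09 over the 12 glp-1 libraries, glp-1 luc included. dpy-28 read 2.04, 1.23 and 1.14 RPKM in hlh-30 RNAi, 2.86, 1.51 and 1.63 in atg-2 RNAi and 1.97, 1.41 and 1.45 in atg-18 RNAi. Library 1 was the highest in each group, as in glp-1 luc, and the groups overlapped.

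dpy-27 read 6.50, 5.90 and 5.85 RPKM in hlh-30 RNAi, 6.91, 6.44 and 6.35 in atg-2 RNAi and 6.59, 6.16 and 5.51 in atg-18 RNAi. These groups overlapped with glp-1 luc, and the log2 difference was -0.13 (95% interval -0.35 to 0.09) in hlh-30 RNAi and -0.13 (-0.36 to 0.10) in atg-18 RNAi. sdc-2 read 1.72, 1.35 and 1.81 RPKM in hlh-30 RNAi, 1.51, 1.58 and 1.59 in atg-2 RNAi and 1.74, 1.45 and 1.86 in atg-18 RNAi. Its differences were -0.04 (-0.40 to 0.32), -0.07 (-0.40 to 0.25) and -0.01 (-0.34 to 0.32), none outside the spread of the libraries.

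Over the 8 genes the log2 differences ran from -0.18 to 0.07 in hlh-30 RNAi, from -0.07 to 0.19 in atg-2 RNAi and from -0.13 to -0.01 in atg-18 RNAi. The outermost ends of their 95% intervals were -0.71 and 0.60, -0.47 and 0.79, and -0.55 and 0.38, while single genes such as dpy-27 had narrower intervals. The smallest limma adjusted p of the 8 genes was 0.739, 0.947 and 0.826. These fits did not use the replicate number, although it paired atg-2 RNAi with luc. With the number as a block, 0 of the 8 genes were called in atg-2 RNAi.

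**Figure D5:**
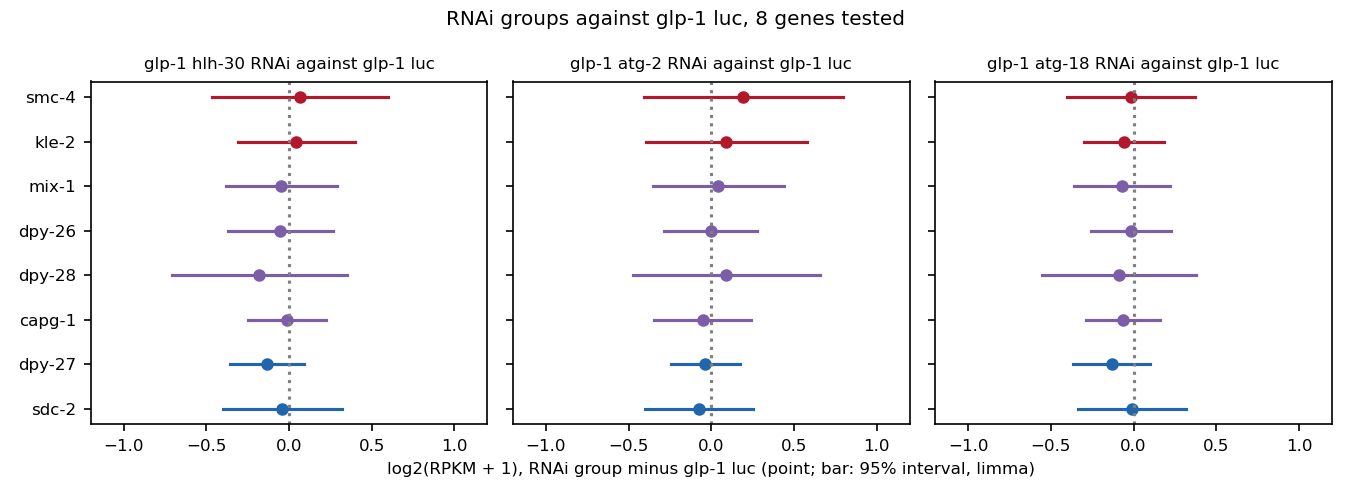
Log2(RPKM + 1) difference of each RNAi group from glp-1 luc with its 95% interval, for the 8 condensin and dosage compensation genes tested. Every interval includes 0.

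The RNAi groups were also compared with each other in the 12 glp-1 libraries. 0 of the 8 genes tested were called between hlh-30 and atg-2 RNAi, where 1.01% of 12460 genes were called, between hlh-30 and atg-18 RNAi, with 1.02% called, or between atg-2 and atg-18 RNAi, with 0.0161% called. The smallest limma adjusted p was 0.693, 0.951 and 0.999. 0 of the 8 had an unadjusted p under 0.05, against 12.5%, 9.99% and 3.14% of all genes, and all 10 overlapped between the groups, where 17.7%, 13.6% and 8.03% of genes did not. A test of any difference among the 4 glp-1 groups called 0.714% of genes (11.5% at an unadjusted p under 0.05), and the 8 genes had limma adjusted p from 0.817 for dpy-27 to 0.995. The replicate numbers paired the libraries in the 3 contrasts between RNAi groups, and a fit with the number as a block called 757, 506 and 1 genes there in place of 126, 127 and 2, again with 0 of the 8 genes.

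The counterpart pairs kept the glp-1 luc order of subunits in the RNAi groups. On log2(RPKM + 1), dpy-27 minus smc-4 was 1.44 ± 0.275 in hlh-30 RNAi, 1.41 ± 0.385 in atg-2 RNAi and 1.52 ± 0.152 in atg-18 RNAi, and capg-1 minus capg-2 was 1.95 ± 0.392, 1.75 ± 0.276 and 2.11 ± 0.0593. dpy-26 minus kle-2 was 0.55 ± 0.0630, 0.55 ± 0.280 and 0.69 ± 0.0996. An exact permutation test over the 4 glp-1 groups gave p = 0.748, 0.464 and 0.682 for these pairs (adjusted 0.748 each). For dpy-28 minus hcp-6, at 0.68 ± 0.134, 0.92 ± 0.129 and 1.05 ± 0.206, the exact permutation test gave p = 0.0463, or 0.185 after adjustment over the 4 pairs. In that pair hlh-30 RNAi ran from 0.599 to 0.838 and glp-1 luc from 0.983 to 1.07, without overlap, but the exact permutation p for the difference of -0.35 was 0.1, or 0.4 adjusted. As RPKM ratios the same groups overlapped, from 2.02 to 5.01 in hlh-30 RNAi and from 3.73 to 7.88 in glp-1 luc, and with no pseudocount the exact permutation p over the 4 groups was 0.234.

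The other genes of the dosage compensation machinery were all lower in glp-1 luc than in TU3401, 6 of 6 called by limma where 48.3% of all genes were called lower, with a median log2 difference of -2.30 beside -0.186 over all genes. sdc-3, an X-recruiting partner of SDC-2, was at 6.32 ± 0.458 RPKM in TU3401 and 2.24 ± 0.248 in glp-1 luc (-1.18, adjusted p = 2.89e-05), close to the difference of sdc-2. sdc-1, a zinc finger protein of the same complex, went from 16.4 ± 0.501 to 1.91 ± 0.147 (-2.58). dpy-21, a histone demethylase of the complex, went from 23.9 ± 2.37 to 5.16 ± 0.803 (-2.02). sdc-1 and dpy-21 thus fell more than dpy-27 (-1.71) and sdc-2 (-1.04), so the smaller falls of that class did not hold across the complex.

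dpy-30, which also works in other chromatin complexes, was at 351 ± 17.3 RPKM and 111 ± 5.35 (-1.65). The histone methyltransferase genes set-1 and set-4 were at 157 ± 2.03 and 84.2 ± 3.26 RPKM in TU3401, and 5.86 ± 1.79 and 10.7 ± 0.989 in glp-1 luc (-4.56 and -2.87). None of the 6 genes was called against glp-1 luc in the RNAi groups against hlh-30, where 0.088% of genes were called, or against atg-2 and atg-18, where 0% were.

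Genes of sex determination and X counting gave 12 genes called lower, 1 higher and 1 not called of 14 tested (median -2.12). Over all genes 48.3% were called lower. Of the 14, xol-1, her-1, fem-3, sea-1 and fog-1 passed the filter only through TU3401 and had to differ, and of the other 9, 7 were called lower. fem-3, a male-promoting gene also used in the hermaphrodite germline, went from 55.4 ± 1.15 to 0.237 ± 0.269 RPKM (-5.53). sea-1, an autosomal signal element of the X counting system, fell by 4.82 on the log2 scale. tra-1, the terminal regulator of somatic sex, was called higher, at 11.1 ± 1.28 and 17.9 ± 1.90 RPKM (0.65, adjusted p = 0.00104), but called lower under scaling on neuronal and muscle genes (-0.75, adjusted p = 0.00311). Under that scaling 14 of the 14 were lower.

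The X chromosome, where the dosage compensation condensin acts, contributed 7.33% to 7.56% of protein-coding RPKM in the TU3401 libraries, against 17.9% to 18.9% across the glp-1 libraries. Of 1871 X-linked genes tested in glp-1 luc against TU3401, 62.8% were called higher and 24% lower, with a median log2 difference of 0.80. Of 10721 autosomal genes 38.3% were higher and 53.9% lower, with a median of -0.66. Scaled on neuronal and muscle genes both medians were below 0, at -0.485 and -1.91, and the shares called higher and lower became 18.2% and 51.8% for X-linked genes and 11.5% and 68.8% for autosomal genes. Germline markers moved with this split as given above, and their part in it was not tested.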

How the data were processed

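The deposited expression tables hold RPKM that the authors computed per gene and library. Per the file headers, each deposited table adds a log2 fold change, a p-value with its false discovery rate, and a ranking score, all made by the authors with a test that the sources used here do not name. TopHat2 2.1.1, bcl2fastq and the human build GRCh38 appear in the submitters' processing notes. No coordinates are printed because that build is not of this organism. The sources used here do not name the counter, its annotation or its use of strand. The glp-1 luc columns are repeated in 4 tables with 0 values differing. Steps in the values gave whole reads in all libraries for 15844 of 18704 detected coding genes (84.7%, tolerance 0.001 reads). The recovered lengths of all 10 genes equalled the coding length in WBcel235, used for names, chromosomes and overlaps. All 15 replicate pairs differed by more than sampling noise (chi-square per degree of freedom 6.39 to 21.2).

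Values were analysed as log2(RPKM + 1) with limma 3.58.1 in R 4.3.3 (mean-variance trend, not robust, mean RPKM of at least 1, Benjamini-Hochberg adjusted p under 0.05, two-sided), tested on simulated data first. Comparisons with luc used 6 libraries, and direct contrasts 12. Within-library pairs used exact two-sided permutation tests. Python 3.11.15 was used for tables and plots (matplotlib 3.10.9, numpy 2.4.6, pandas 2.3.3). The genes and lists were chosen with earlier results of these data known. Named genes were the 10 genes, the RNAi targets and glp-1, and the other dosage compensation genes. Up to 2 largest called changes each way in each other list were added. So were the 3 genes most correlated with smc-4 and with sdc-2. Outside this rule, markers at 0 in glp-1 luc, genes passing the filter only through TU3401, coh-1 and overlapping genes were named. Replicate numbers of the titles were taken as pairing where same-numbered libraries deviated together across genes, with r over 0.1 in all 3 pairs. This held for atg-2 RNAi with luc (0.402, 0.264 and 0.2), hlh-30 with atg-2 (0.504, 0.272 and 0.291), hlh-30 with atg-18 (0.208, 0.239 and 0.216) and atg-2 with atg-18 RNAi (0.151, 0.183 and 0.17). Alternatives were another pseudocount or, for pairs, none (added after the values were seen), filter, scaling or trend setting, all libraries in 1 fit, the replicate block, and leaving out each replicate.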

Additional observations from a re-analysis of the deposited data

How the results depend on the processing

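All 10 genes were called lower in glp-1 luc than in TU3401 under every alternative run that tested them. The exception was sdc-2, not tested at a minimum mean RPKM of 5. hcp-6 and capg-2 passed the filter only through TU3401 and had to differ, so their calls under filtered alternatives add no support. Scaling on neuronal and muscle genes lowered glp-1 luc values against TU3401, so the calls under it add none either. Leaving out library 1 of glp-1 luc, the highest of its group in all 10 genes, could only widen the falls. In the main fit 48.3% of all genes were called lower. In the RNAi comparisons 0 of the 10 genes were called under any alternative. The block by replicate number changed no call of these genes; it called 46 genes in hlh-30 RNAi in place of 11, and 12255 in glp-1 luc against TU3401, where the numbers did not pair the libraries (r 0.0707, 0.0722 and -0.0238). The count of 11 genes in hlh-30 RNAi was unstable: it was 1 without replicate 1, 0 to 11 with a single library left out (0 without hlh-30 RNAi library 2 or 3 or glp-1 luc library 3, 3 without hlh-30 RNAi library 1), 2 to 14 under the other filters, scalings, pseudocount and trend setting, and 56 with all 15 libraries in the fit. With the block, the test over the 4 glp-1 groups called 846 genes in place of 89, although the numbers did not pair hlh-30 or atg-18 RNAi with luc. Scaling on neuronal and muscle genes moved the class medians in glp-1 luc against TU3401 to -5.91 (mitotic only), -4.58 (shared) and -2.59 (dosage compensation only), the last to -0.109 in atg-2 RNAi, and all 3 to -0.143, -0.16 and -0.157 in atg-18 RNAi. With all 12 glp-1 libraries the pair changes were 2.977, 1.291, 1.139 and 2.293, which passed the test because more libraries allow a smaller p. That test pooled luc with the RNAi groups, and its outcome was fixed in advance, so it adds no support. Small uncalled RNAi differences changed sign: in hlh-30 RNAi kle-2 was -0.02753 with neuronal and muscle scaling and capg-1 0.0051309 with median-ratio scaling, and in atg-2 RNAi mix-1 was -0.01616 and dpy-26 0.014095 under the same. Leaving out each replicate gave these ranges in hlh-30 RNAi: smc-4 -0.13 to 0.18, mix-1 -0.13 to 0.062, kle-2 -0.10 to 0.12, capg-1 -0.047 to 0.050, dpy-26 -0.16 to 0.027, sdc-2 -0.092 to 0.039. In atg-2 RNAi they were smc-4 -0.053 to 0.36, mix-1 -0.11 to 0.15, kle-2 -0.13 to 0.27, capg-1 -0.15 to 0.040, dpy-26 -0.083 to 0.076, dpy-27 -0.086 to 0.019, dpy-28 -0.10 to 0.27. In atg-18 RNAi they were smc-4 -0.12 to 0.092, mix-1 -0.13 to 0.041, capg-1 -0.098 to 0.0024, dpy-26 -0.086 to 0.082, dpy-28 -0.18 to 0.087, sdc-2 -0.057 to 0.055. Without replicate 1 the group difference of dpy-26 minus kle-2 turned to 0.005164 in hlh-30 and 0.1113 in atg-2 RNAi, of dpy-28 minus hcp-6 to -0.06494 in atg-18 RNAi, and of capg-1 minus capg-2 to 0.02403 in hlh-30 and -0.001606 in atg-18 RNAi. Their causes were not tested. Depth limits hcp-6 and capg-2 most in the glp-1 libraries.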

Other observations

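Other SMC complexes and the mitotic machinery were lower in glp-1 luc than in TU3401 as well, in 14 of 14 cohesin and SMC-5/6 genes tested (median log2 difference -3.74) and in 16 of 16 genes of mitotic chromosomes and centromeres (-5.75), all called by limma, beside a median of -0.186 and 48.3% called lower over all genes. Of these, 4 cohesin genes, scc-1 among them, and 6 mitotic genes, plk-1 among them, passed the filter on low values only through TU3401 and had to differ. The largest falls were those of scc-1, the mitotic cohesin kleisin, (-5.44 on the log2 scale), and smc-6 (-4.76), and of the mitotic kinase genes plk-1 (-7.26) and cdk-1 (-7.15). The values for dpy-27 and sdc-2 given above, -1.71 and -1.04, were smaller falls than the median of either list, but coh-1, a cohesin kleisin, fell by 1.64, less than dpy-27.

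Over the 15 libraries, the genes whose log2(RPKM + 1) followed smc-4 most closely among 13382 genes were F33H2.5 (Pearson r = 0.9994), F01G4.4 (0.9993) and msh-6 (0.9993), and those closest to sdc-2 were klp-12 (0.9962), mrt-1 (0.995) and rsd-2 (0.9946). These are descriptions across libraries that fall into TU3401 and glp-1 groups, with no test.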
